A study of Homo sapiens with 36 samples.

Results

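The early days of recovery from doxorubicin (DXR) were followed in 6 small RNA libraries, the 2 replicates each of DXR D1, D2 and D3, against the 2 libraries of untreated cells (Ctrl), out of 36 libraries in the series. All 8 came from WI-38, a strain of normal human fibroblasts from lung. Ctrl cells were young, proliferating and untreated. DXR cells were exposed to the drug for a day, the drug was washed away, and RNA was taken 1, 2 or 3 days after its removal. The SDS libraries of the same days, from cells exposed to sodium dodecyl sulphate in place of DXR, are compared with them at the end. The libraries were chosen by these labels and not by any measured value, and every miRNA row of the table entered. The same 2 Ctrl libraries served all days and no untreated library was matched to a day, so the drug and the days in culture cannot be told apart.

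A mature miRNA is a short RNA that guides an Argonaute protein to messenger RNAs, mostly through pairing of its seed, the bases near its 5′ end, and lowers their output. Doxorubicin poisons topoisomerase II and causes DNA double-strand breaks, which activate the kinase ATM. The miR-34 genes and the cell-cycle inhibitor CDKN1A (p21) are induced by this DNA damage response, whereas the miR-17 clusters are driven by MYC and E2F in dividing cells and repress CDKN1A.

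The deposited values were expected counts per mature miRNA. The 6 DXR libraries summed to 232939 to 1010185 counts and the Ctrl libraries to 223548 and 327354, and 360 of the 1508 listed miRNAs passed the filter on low counts and were tested. Between replicates, r of log2 CPM (CPM, the count scaled to a common library total with TMM factors) was 0.976 for Ctrl and 0.981 to 0.986 for the DXR days. Chi-square per degree of freedom was 5.87 to 41.6, so the replicates differed by more than counting error. The 10 most abundant miRNAs took 55.0% to 56.9% of the DXR libraries and 52.6% to 53.5% of Ctrl. The 6 fibroblast markers (miR-199a-3p, miR-199a-5p, miR-214-3p, miR-143-3p, miR-145-5p and miR-21-5p) summed to 87297 to 94430 CPM of the plain total in Ctrl and 71723 to 121040 after DXR. Over the 8 libraries miR-21-5p had 252152 counts and the next of the 6, miR-143-3p, 39066, so this sum mainly followed miR-21-5p. On the scale of the plain total, markers of erythroid, leukocyte and neuronal cells reached at most 4.47, 0 and 8.95 CPM in Ctrl and 4.29, 6.19 and 15.8 CPM after DXR. The 7 epithelial markers summed to 30.5 to 76.0 and 40.2 to 81.0 CPM, the endothelial pair miR-126-3p and miR-126-5p to 45.8 to 58.2 and 66.0 to 121 CPM, and the hepatocyte marker miR-122-5p to 15.3 to 103 and 43.3 to 177 CPM.

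Sequences of the miRNAs on which the results turn were taken from RefSeq (GRCh38.p14), written 5′ to 3′ with the seed, bases 2 to 8, in capitals. They are shown because the seed fixes which messages a miRNA can pair with, and because members of one seed family can be followed together. The miRNAs called higher after DXR were
hsa-miR-664a-3p: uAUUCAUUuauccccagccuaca
hsa-miR-337-3p: cUCCUAUAugaugccuuucuuc
hsa-miR-374b-5p: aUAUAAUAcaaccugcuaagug
hsa-miR-30c-5p: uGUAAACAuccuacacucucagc
hsa-miR-34a-5p: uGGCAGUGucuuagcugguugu
hsa-miR-574-3p: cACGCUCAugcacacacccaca
hsa-miR-10a-5p: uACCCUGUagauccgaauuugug
hsa-miR-125b-5p: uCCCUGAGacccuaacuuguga
together with miR-486-5p, which is named only. Those called lower after DXR were
hsa-miR-940: aAGGCAGGgcccccgcucccc
hsa-miR-1303: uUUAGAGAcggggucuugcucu
hsa-miR-625-3p: gACUAUAGaacuuucccccuca
hsa-miR-7-5p: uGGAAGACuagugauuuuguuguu
hsa-miR-671-5p: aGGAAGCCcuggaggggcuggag
hsa-miR-155-5p: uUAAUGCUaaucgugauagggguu
hsa-miR-93-5p: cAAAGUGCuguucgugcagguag

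The 15 called miRNAs with a printed sequence carried 15 different seeds, so no 2 of them share a seed. Among the 329 of 360 tested miRNAs with a matched sequence, miR-30c-5p shares the seed GUAAACA with miR-30a-5p and miR-30e-5p. In the same set, miR-93-5p shares AAAGUGC with miR-17-5p, miR-20a-5p and miR-106b-5p. miR-30b-5p and miR-30d-5p of the miR-30-5p family are not printed, so the families shown can be incomplete. The relatives that share these seeds are printed to show how they differ outside the seed.
hsa-miR-30a-5p: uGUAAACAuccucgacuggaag
hsa-miR-30e-5p: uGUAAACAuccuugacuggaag
hsa-miR-17-5p: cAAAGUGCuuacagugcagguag
hsa-miR-20a-5p: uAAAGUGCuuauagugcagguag
hsa-miR-106b-5p: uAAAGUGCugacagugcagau
Among the printed sequences called higher, GC content ran from 31.8% (miR-374b-5p) to 59.1% (miR-574-3p), a range that leaves out miR-486-5p. Among those called lower it ran from 33.3% (miR-7-5p) to 81.0% (miR-940).

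On GRCh38, the damage-induced miR-34a lies at chr1:9151668-9151777 (minus strand) in an exon of its host transcript MIR34AHG. miR-93 lies in an intron of MCM7, a replication helicase gene, with its mature arm at chr7:100093815-100093837 (minus), beside miR-106b at chr7:100093993-100094074. The 2 copies of miR-30c lie in introns of NFYC at chr1:40757284-40757372 (plus) and LINC00472 at chr6:71376960-71377031 (minus), so its count pools both loci, and counts of miR-7-5p and miR-125b-5p pool loci likewise. miR-10a lies in an intron of HOXB3 at chr17:48579838-48579947 (minus), miR-374b in an intron of the non-coding gene FTX at chrX:74218547-74218618 (minus), and miR-337 in an intron of MIR493HG within the imprinted 14q32 region at chr14:100874493-100874585 (plus). The mature arm of miR-155 lies in an exon of MIR155HG at chr21:25573983-25574006 (plus). The hairpin of miR-664a at chr1:220200538-220200619 (minus) overlaps the small nucleolar RNA SNORA36B inside an intron of RAB3GAP2, and reads of either RNA could be counted as miR-664a.

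With D1 to D3 as one group, 16 miRNAs were called, that is, differed from Ctrl at an edgeR adjusted p below 0.05. Of the 360 tested, 9 were higher after DXR (2.5%) and 7 were lower (1.94%). The higher group held the DNA damage miRNA miR-34a-5p, the senescence-associated miR-30c-5p, miR-486-5p and miR-664a-3p, and the very abundant miR-125b-5p and miR-10a-5p. The lower group held miR-155-5p, made from the NF-κB-responsive gene MIR155HG, miR-93-5p of the cell-cycle-linked MCM7 cluster, and the growth-factor-receptor repressor miR-7-5p. All 6 DXR libraries lay outside the range of both Ctrl libraries for each of the 16. Among all 360 tested, 48 lay above both Ctrl libraries (13.3%) and 48 below (13.3%). In bulk RNA, a lower level in every cell and a loss of the cells that hold a miRNA cannot be told apart.

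**Figure D1:**
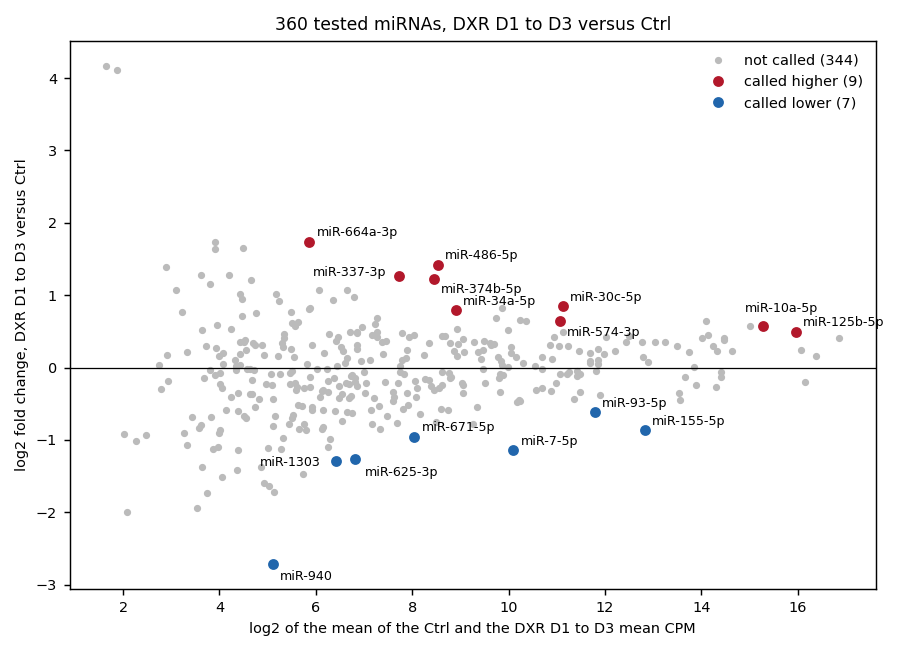
Log2 fold change of DXR D1 to D3 over Ctrl (vertical axis) against the log2 of the mean of both groups' CPM (horizontal axis) for the 360 tested miRNAs, one point each, with the 9 called higher in red and the 7 called lower in blue. Called miRNAs spread from miR-940 at the low end to miR-125b-5p at the high end of abundance, and the 2 grey points above 4 are miR-1246 and miR-3180-5p, which had 0 counts in both Ctrl libraries.

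Among the higher group, the damage-induced miR-34a-5p had 352 and 352 CPM in Ctrl, 675 and 549.8 at DXR D1, 716 and 416 at D2 and 705 and 586 at D3. The first replicate was the higher one on each day, and the closest DXR library (D2 replicate 2) was still above both Ctrl libraries (log2 fold change 0.79, SE 0.23, edgeR adjusted p = 0.0483). The call was also lost, at edgeR adjusted p = 0.0579, 0.146 and 0.0505, with a filter at a mean of 10 counts, with no filter and at equal depth, and miR-34a-5p was not past the threshold on any single day (edgeR adjusted p = 0.0777 at D3). miR-30c-5p, one of the miR-30 family that represses the cell-cycle factor MYBL2 in senescence, had 1439 and 1750.5 CPM in Ctrl, 2791 and 2344 at DXR D1, 2961 and 2489.8 at D2 and 3274 and 3473 at D3. Both D3 libraries were above all other libraries of the 8 (log2 fold change 0.85, SE 0.24, edgeR adjusted p = 0.0357). miR-486-5p, abundant in muscle and red cells and a repressor of FOXO1, had 202 and 194 CPM in Ctrl, 395 and 426 at DXR D1, 608 and 454 at D2 and 763 and 605 at D3. Its DXR libraries did not come near the Ctrl pair on any day (log2 fold change 1.42, SE 0.34, edgeR adjusted p = 0.00988), while the 2 erythroid markers in the table summed to 4.47 CPM of the plain total or less. The 3 muscle markers (miR-1-3p, miR-133a-3p and miR-206) summed to 4.47 to 9.16 CPM in Ctrl and 5.84 to 34.3 after DXR, with miR-206 at 0 in all 8 libraries and 1 count of miR-133a-3p, and their part in miR-486-5p was not tested.

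miR-125b-5p, a homolog of the developmental timing miRNA lin-4, was the most abundant of the 16 and had 53046 and 52986 CPM in Ctrl, 68753 and 73024 at DXR D1, 76261 and 71294 at D2 and 77349 and 81926 at D3. The Ctrl pair lay close together and every DXR library was above it (log2 fold change 0.49, SE 0.11, edgeR adjusted p = 0.00628). miR-10a-5p, which lies among the HOXB genes and represses HOX genes, had 33916 and 30058 CPM in Ctrl, 47794 and 47619 at DXR D1, 51784 and 45146 at D2 and 48565 and 43769 at D3. The 3 days gave like levels (log2 fold change 0.57, SE 0.15, edgeR adjusted p = 0.0196). Together these 2 miRNAs took 8.30% to 8.70% of the scaled total in Ctrl and 11.6% to 12.8% after DXR, and all 9 higher miRNAs took 8.74% to 9.09% and 12.3% to 13.5%. The 7 lower miRNAs took 1.51% and 1.65% in Ctrl and 0.718% to 1.15% after DXR.

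miR-374b-5p had 198 and 197 CPM in Ctrl, 338 and 470.0 at DXR D1, 319 and 309 at D2 and 801 and 760.5 at D3. Its 2 D3 libraries were above all others, and the D1 and D2 libraries lay between them and Ctrl (log2 fold change 1.23, SE 0.25, edgeR adjusted p = 0.00507). miR-337-3p from 14q32 had 98.8 and 146 CPM in Ctrl, 201 and 304 at DXR D1, 294 and 358 at D2 and 335 and 321 at D3, with D2 and D3 at a like height (log2 fold change 1.27, SE 0.27, edgeR adjusted p = 0.00507). miR-574-3p had 1598 and 1705 CPM in Ctrl, 2066 and 2344 at DXR D1, 2219 and 2493 at D2 and 3250.0 and 3317 at D3, and its D3 pair stood apart from the other days (log2 fold change 0.64, SE 0.18, edgeR adjusted p = 0.035). miR-664a-3p had 21.5 and 28.6 CPM in Ctrl, 69.4 and 101 at DXR D1, 45.2 and 70.9 at D2 and 147 and 115 at D3. This was the largest log2 fold change of the higher group but also the least precise (log2 fold change 1.74, SE 0.50, edgeR adjusted p = 0.0397), and Ctrl rested on 5 and 10 counts. The other arm of its hairpin, miR-664a-5p, had a log2 fold change of 1.01 (SE 0.59, edgeR adjusted p = 0.331), and the share of SNORA36B reads in these counts was not tested.

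Among the lower group, miR-155-5p, a repressor of SOCS1 that is induced in inflammation, had 8830.3 and 9908 CPM in Ctrl, 4914 and 7103 at DXR D1, 4549 and 5849 at D2 and 4109 and 4572 at D3. The D1 replicates were far apart, and both D3 libraries lay near or below the lowest library of the other days (log2 fold change -0.87, SE 0.20, edgeR adjusted p = 0.00628). miR-93-5p, which represses CDKN1A, had 4353 and 4162 CPM in Ctrl, 3216 and 3469 at DXR D1, 3006 and 2806 at D2 and 2227 and 2194 at D3. Each day's pair lay below that of the day before (log2 fold change -0.61, SE 0.13, edgeR adjusted p = 0.00507). miR-7-5p, a repressor of EGFR, had 1207 and 1782 CPM in Ctrl, 1111 and 634 at DXR D1, 855 and 654 at D2 and 537 and 412 at D3. One D1 library came close to the lower Ctrl library, and the D3 pair was the lowest (log2 fold change -1.14, SE 0.28, edgeR adjusted p = 0.0116). miR-625-3p had 142 and 172 CPM in Ctrl, 100.4 and 92.3 at DXR D1, 88.0 and 58.0 at D2 and 44.5 and 32.1 at D3, and it too was lowest at D3 (log2 fold change -1.27, SE 0.28, edgeR adjusted p = 0.00507).

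miR-671-5p, which directs cleavage of the circular RNA CDR1as, had 322 and 369 CPM in Ctrl, 145 and 149 at DXR D1, 168 and 161 at D2 and 216 and 257 at D3. It ran the other way in time, lowest at D1 and nearer to Ctrl at D3 (log2 fold change -0.95, SE 0.22, edgeR adjusted p = 0.00688). miR-1303 had 129 and 114 CPM in Ctrl, 64.1 and 46.2 at DXR D1, 65.3 and 45.1 at D2 and 47.9 and 27.5 at D3, with no DXR library near Ctrl (log2 fold change -1.29, SE 0.32, edgeR adjusted p = 0.0116). miR-940 had 21 and 10 counts in Ctrl, 12 and 7 at D1, 4 and 4 at D2 and 1 and 1 at D3 (log2 fold change -2.71, SE 0.53, edgeR adjusted p = 0.00507). The D3 libraries were at or below the floor of 3 counts, and the Ctrl libraries themselves lay far apart at 90.2 and 28.6 CPM against 12.8 and 14.7 CPM at D1. The summed counts gave a D3 to Ctrl ratio of 0.0736, with an exact 95% interval of 0.00853 to 0.289 that covers counting error only.

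**Figure D2:**
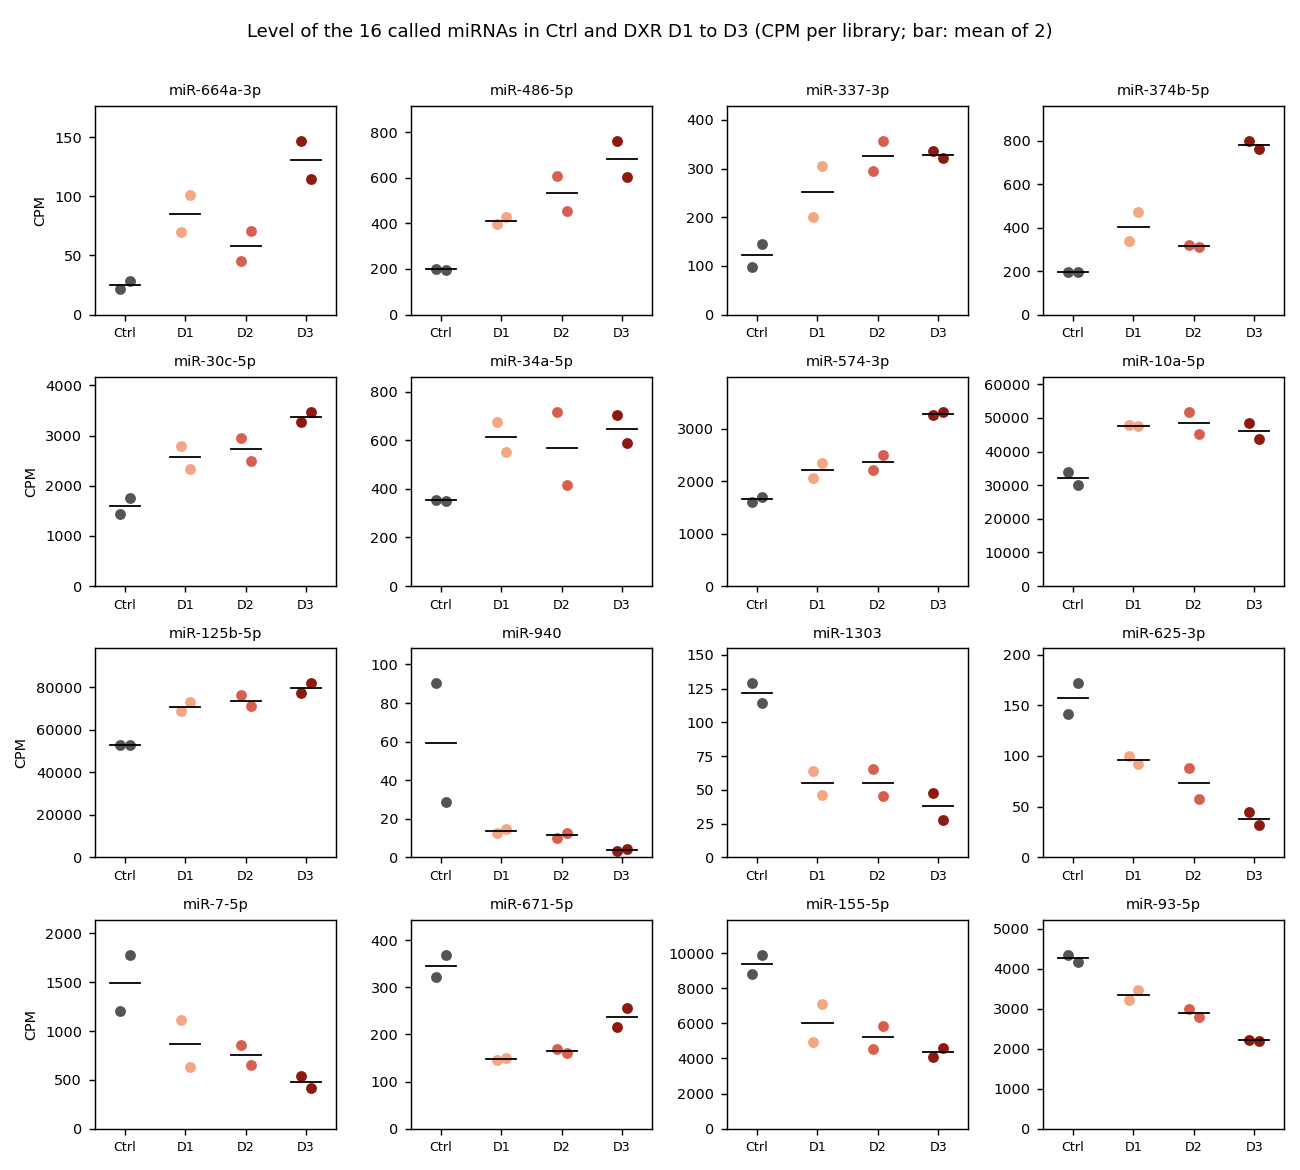
CPM (vertical axes, linear from 0) of each of the 16 called miRNAs in the 2 libraries of Ctrl and of DXR D1, D2 and D3 (horizontal axes), with points for libraries and a bar for the mean of 2. In every panel the 6 DXR points lie on one side of both Ctrl points, and the D3 pair is the highest for miR-374b-5p (801 and 760.5 CPM) and the lowest for miR-93-5p (2227 and 2194 CPM).

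Apart from miR-940, each call was lost when either Ctrl library was left out. With Ctrl replicate 1 left out, 0 of the 16 stayed past the threshold, and with Ctrl replicate 2 left out 1 did, miR-940, although all 16 kept their direction. Without Ctrl replicate 1 the log2 fold change of miR-940 was -1.72, and without Ctrl replicate 2 it was -3.36. Leaving out any 1 of the DXR libraries gave 11 to 17 calls, and 11 of the 16 kept theirs each time. Of the other 5, miR-664a-3p, miR-30c-5p, miR-34a-5p, miR-574-3p and miR-10a-5p, all were lost without DXR D3 replicate 1. miR-30c-5p and miR-34a-5p were also lost without D1 replicate 1 or D2 replicate 1, miR-664a-3p and miR-574-3p without D1 replicate 2 or D2 replicate 2, and miR-30c-5p without D3 replicate 2. Over the 8 leave-outs the log2 fold change of miR-30c-5p stayed within 0.71 to 0.99, that of miR-34a-5p within 0.64 to 0.92 and that of miR-664a-3p within 1.58 to 1.98. The split between higher and lower depended on the scaling and on the filter. With no filter there were 9 higher and 3 lower, of which 9 were among the 16, and miR-34a-5p, miR-574-3p, miR-125b-5p, miR-1303, miR-625-3p, miR-671-5p and miR-93-5p were lost. DESeq2's size factors in place of TMM gave 5 higher (without miR-664a-3p, miR-30c-5p, miR-34a-5p and miR-574-3p) and 9 lower and moved the median of all tested miRNAs from -0.03 to -0.10, and total counts gave 3 higher and 17 lower with a median of -0.22. Under total counts miR-486-5p, miR-337-3p and miR-374b-5p were still called higher, whereas miR-664a-3p, miR-30c-5p, miR-34a-5p, miR-574-3p, miR-10a-5p and miR-125b-5p were not, though their log2 fold changes stayed above 0. In a fit of only the 8 libraries, 56 miRNAs were called. That fit took its filter, TMM factors and dispersion from these libraries, and their parts in the rise were not separated.

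By day, DXR D1 gave 0 calls higher than Ctrl (0%) and 1 lower (0.278%), the latter miR-671-5p (log2 fold change -1.23, SE 0.28, edgeR adjusted p = 0.0415), and DESeq2 gave the same numbers, with 57 miRNAs in both directions at an unadjusted edgeR p below 0.05. DXR D2 gave 1 higher (0.278%) and 0 lower (0%), the former miR-337-3p (log2 fold change 1.39, SE 0.31, edgeR adjusted p = 0.0399), where DESeq2 called 3 and 3 and 54 had an unadjusted p below 0.05. DXR D3 gave 9 higher (2.5%) and 7 lower (1.94%). Of the 17 miRNAs called on at least 1 day, 3 were not called over the days as one group. They were miR-423-3p, lower at D3 (log2 fold change -0.70, SE 0.20, edgeR adjusted p = 0.0441), and miR-23b-3p and miR-495-3p, higher at D3 (log2 fold change 0.70, SE 0.21, edgeR adjusted p = 0.0441 and log2 fold change 0.86, SE 0.25, edgeR adjusted p = 0.0441). The D1 call and the D2 call were each lost (0 calls) when any 1 of their 4 libraries was left out, and at equal depth. The D1 call was also lost with no filter, and miR-337-3p was not called at D2 with total counts or with no filter, where 3 and 1 other miRNAs were. Without either Ctrl replicate, D3 gave 5 calls, and without DXR D3 replicate 1 or 2 it gave 5 or 7. Size factors gave 6 higher and 7 lower at D3, and total counts 5 and 9.

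The 16 were called on the mean of these 3 days, so the course over the days is a description. The fold change was largest at D3 for 14 of the 16, against 158 of all 360 tested, and for 11 of the 16 it moved step by step away from Ctrl, against 80 of the 360. The median absolute log2 fold change of the 16 was 0.79 at D1, 0.92 at D2 and 1.26 at D3, while that of all tested miRNAs was 0.40, 0.39 and 0.43. The log2 fold changes at D1, D2 and D3 were -0.70, -1.09 and -2.01 for miR-625-3p, -0.35, -0.55 and -0.95 for miR-93-5p, and -0.64, -0.85 and -1.11 for miR-155-5p. For miR-486-5p they were 1.05, 1.43 and 1.79. miR-10a-5p and miR-34a-5p showed no such course, with 0.58, 0.60 and 0.53 for the first and 0.80, 0.69 and 0.88 for the second.

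**Figure D3:**
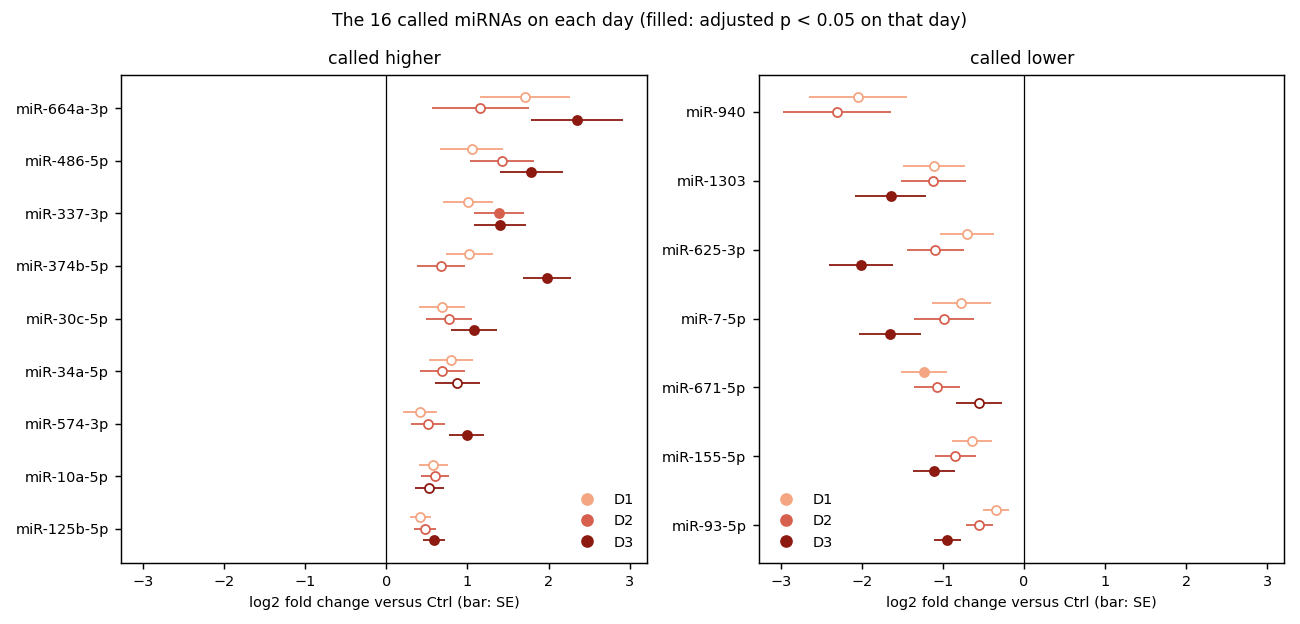
Log2 fold change over Ctrl (horizontal axes, bars are SE) of the 16 called miRNAs at D1, D2 and D3 (shades), with the higher group on the left and the lower group on the right and a filled point for an adjusted p below 0.05 on that day. Most filled points are at D3, with miR-671-5p filled only at D1, and the D3 point of miR-940 is left out because both libraries had 1 count.

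Whether the days differed was tested without Ctrl. Directly, DXR D3 against D1 gave 0 calls higher (0%) and 0 lower (0%) in edgeR, with 41 at an unadjusted p below 0.05, and DESeq2 called 2. A test of any difference among D1, D2 and D3 called 1 miRNA (0.278%), miR-374b-5p, with an edgeR adjusted p of 0.0372. Its mean was 404 CPM at D1, 314 at D2 and 781 at D3. This call was lost with DESeq2's size factors, with no filter, at equal depth and without any 1 of 5 of the 6 DXR libraries (it held without D1 replicate 2). For miR-625-3p and miR-93-5p the difference between the days did not pass the test (edgeR adjusted p = 0.147 and 0.123 for D3 against D1).

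The list of miRNAs induced by DNA damage (miR-34a, miR-34b, miR-34c, miR-192, miR-194, miR-215 and others, both arms) had 6 tested members, of which 1, miR-34a-5p, was called higher and 0 lower. Over all tested, 2.5% were called higher and 1.94% lower, and with size factors or total counts 0 of the 6 were called. All 6 had a log2 fold change above 0 with TMM, and 5 of 6 with total counts. Of all 360 tested, 173 were above 0 with TMM and 129 with total counts. Their median was 0.41 against -0.03 over all tested miRNAs. The relative miR-34c-5p had 25.8 and 57.2 CPM in Ctrl and 54.7 to 108 after DXR, so that the groups overlapped (log2 fold change 0.82, SE 0.45, edgeR adjusted p = 0.301). miR-192-5p and miR-194-5p had log2 fold changes of 0.31 and 0.28, each within 1 SE (0.44 and 0.33) of 0.

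The miR-17 clusters (miR-17-92, miR-106b-25 and their arms), which promote the G1 to S step, had 13 tested members. Of these, 1 was called lower, miR-93-5p, and 0 higher, where 1.94% and 2.5% of all tested were. All 13 had a log2 fold change below 0 under each of the 3 scalings, and their median was -0.61 with TMM. With total counts 3 of the 13 were called lower, against 17 of all 360 tested. Of all 360 tested, 187 were below 0 with TMM, 203 with size factors and 231 with total counts. miR-17-5p had 387 and 509 CPM in Ctrl, 314 and 357 at DXR D1, 271 and 173.9 at D2 and 274 and 234 at D3. All DXR libraries were below Ctrl but the test was not passed (log2 fold change -0.75, SE 0.25, edgeR adjusted p = 0.0916). It was passed in DESeq2, under total counts and in a fit of the 8 libraries alone. miR-20a-5p had -0.51 and miR-106b-5p -0.46 (log2 fold changes, neither called), so the 4 tested miRNAs with seed AAAGUGC ranged from -0.75 to -0.46. In the MCM7 intron, miR-25-3p had a log2 fold change of -0.54 (edgeR adjusted p = 0.126). In all, 7 of the 13 lay below both Ctrl libraries in all DXR libraries, against 13.3% of all tested. The list median was -0.43 at D1, -0.63 at D2 and -0.73 at D3. In the miR-15/16 family, which represses cyclins, 0 of 5 were called and 4 were below 0 (median -0.34), with miR-16-5p at -0.43 and miR-15a-5p at -0.99. With total counts 1 of the 5 was called lower and all 5 were below 0 (median -0.53).

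The miR-30-5p family had 5 tested members, 1 of them called higher (miR-30c-5p) and 0 lower, with a median of 0.65. miR-30a-5p, the most abundant of the 3 with a printed seed, had 13342 and 13941 CPM in Ctrl, 24588 and 16203 at DXR D1, 25457 and 21162 at D2 and 20615 and 20304 at D3. Its groups did not overlap (log2 fold change 0.65, SE 0.20, edgeR adjusted p = 0.0565). miR-30e-5p had a log2 fold change of 0.65 and miR-30b-5p 0.46, whereas miR-30d-5p, with 22022 and 23419.8 CPM in Ctrl, had -0.13 and overlapped Ctrl. The 3p arms of miR-30a and miR-30e had log2 fold changes of 0.54 and 1.06 (neither called). The study listed miRNAs already known from senescence that it also found changed in these samples, with the miR-30-5p family as 1 entry. Counting the 5 members of that family singly gave 11 miRNAs. The list was drawn from these samples, so the direction of these 11 is not independent evidence. Of these, 3 were called higher (miR-664a-3p, miR-486-5p and miR-30c-5p) and 1 lower (miR-625-3p), while miR-335-5p had a log2 fold change of 0.82 (edgeR adjusted p = 0.0826). Over all tested, 2.5% were called higher and 1.94% lower, and with size factors or total counts only 1 of the 11 was called higher.

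The let-7 family, which represses RAS and HMGA2, had 9 tested members with log2 fold changes of 0.07 to 0.58, and 0 were called in either direction by edgeR with all 36 libraries. In a fit of the 8 libraries alone, let-7a-5p and let-7f-5p were called higher (edgeR adjusted p = 0.023 and 0.00128), as was let-7f-5p with no filter (edgeR adjusted p = 0.0216). All 9 were above 0 with TMM, 8 with size factors and 7 with total counts (medians 0.30, 0.23 and 0.11). Of all 360 tested, 173, 157 and 129 were above 0 under these scalings. let-7a-5p, the most abundant miRNA of Ctrl, had 119967 and 84732 CPM in Ctrl, 119887 and 134141 at DXR D1, 128405 and 146927 at D2 and 149068 and 133698 at D3, and the Ctrl pair was itself wide enough to overlap DXR (log2 fold change 0.40, SE 0.17, edgeR adjusted p = 0.169). let-7f-5p had 28953 and 24163 CPM in Ctrl, 41755 and 39809 at DXR D1, 42716 and 38778 at D2 and 39636 and 35009.5 at D3, without overlap but short of the threshold (log2 fold change 0.58, SE 0.20, edgeR adjusted p = 0.0955).

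Of the other abundant miRNAs, none was called. miR-100-5p, a repressor of MTOR, had 81196 and 79123 CPM in Ctrl, 95828 and 94969.8 at DXR D1, 98446 and 89628 at D2 and 83432 and 76112 at D3, and the D3 pair lay around the Ctrl pair (log2 fold change 0.16, or -0.039 with total counts). miR-21-5p, a repressor of PDCD4, had 60802 and 64610.3 CPM in Ctrl, 103148 and 67557 at DXR D1, 82824 and 66968 at D2 and 69806 and 57389 at D3, with one D3 library below both Ctrl libraries (log2 fold change 0.24, SE 0.28, edgeR adjusted p = 0.665). miR-222-3p and miR-221-3p, which repress CDKN1B, had log2 fold changes of -0.20 and -0.07. The list labelled CDKN1A and CDKN1B repressors held only the 4 arms of miR-221 and miR-222, and none of the miR-17 clusters. All 4 were below 0, as were 187 of all 360 tested. Of the 4, 0 were called, and the median was -0.13. miR-125a-5p, with the seed of miR-125b-5p, had 0.23 and overlapped Ctrl.

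The list of DNA repair repressors had 8 tested members, 1 called lower (miR-155-5p) and 0 higher, where 1.94% and 2.5% of all tested were. Of the 8, 6 were above 0 under TMM and 5 under total counts, against 173 and 129 of all 360 tested. These shares apply to the next list as well. The median of the repair list was 0.26. miR-101-3p, a repressor of ATM and EZH2, had a log2 fold change of 0.42, miR-24-3p, a repressor of H2AX, 0.22, and miR-182-5p, a repressor of BRCA1, 1.21 (edgeR adjusted p = 0.268). In the NF-κB and inflammation list 1 of 6 was called lower, again miR-155-5p, and 0 higher. miR-146a-5p, which dampens IRAK1 and TRAF6, had 47.3 and 37.2 CPM in Ctrl, 86.5 and 73.4 at DXR D1, 55.3 and 29.0 at D2 and 13.7 and 45.8 at D3. It was above Ctrl at D1 and on both sides of it later (log2 fold change 0.14, and -0.055 with total counts, -0.037 without Ctrl replicate 2, -0.045 without DXR D2 replicate 1 and -0.20 without DXR D3 replicate 2).

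Of the 14 tested miRNAs of the matrix and fibroblast list (miR-29, miR-199, miR-214, miR-143, miR-145 and miR-21), 0 were called. The median was 0.11. With total counts 1 of the 14 was called lower, against 17 of all 360 tested, and the median was -0.09. miR-145-5p, a smooth muscle and fibroblast miRNA, had a log2 fold change of -0.45 and miR-29a-3p, a repressor of collagen messages, 0.22. The 14q32 cluster had 63 tested members, of which 1 was called higher (miR-337-3p) and 0 lower over the days together, with 36 above 0 and 27 below (22 and 41 with total counts). Its median was 0.10 (-0.10 with total counts, where 1 was called higher and 1 lower). Of 7 tested miRNAs that overlap structural RNAs, 1 was called higher (miR-664a-3p) and 0 lower. Over all 360 tested, 2.5% were called higher and 1.94% lower, with 173 above 0 and 187 below (129 and 231 with total counts).

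**Figure D4:**
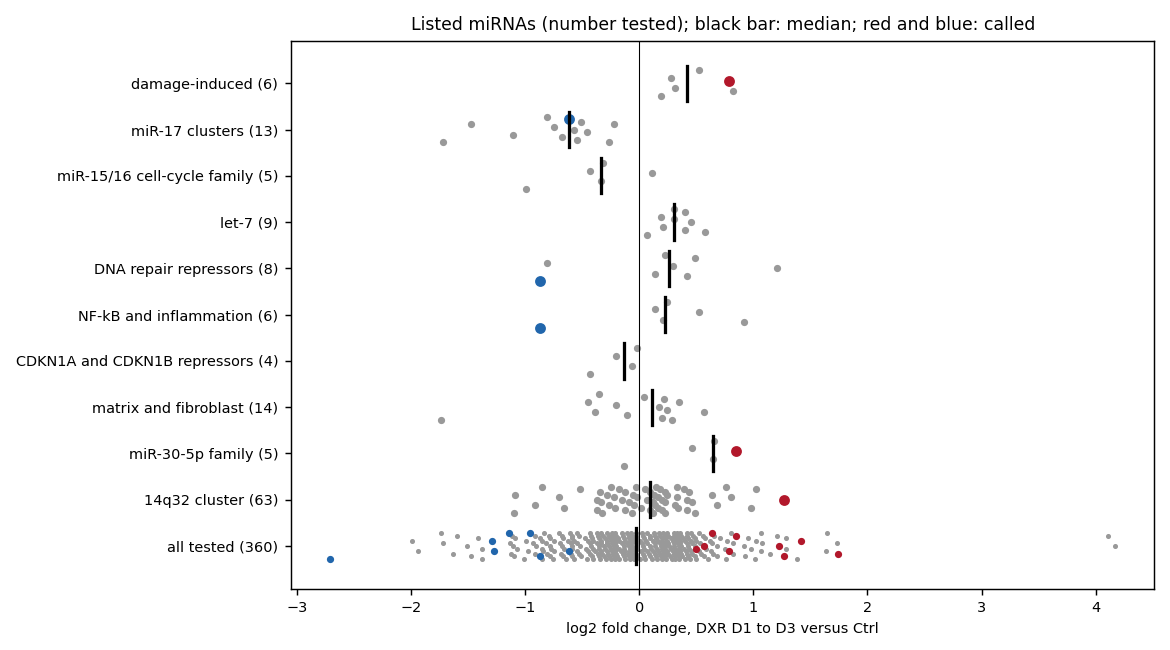
Log2 fold change of DXR D1 to D3 over Ctrl (horizontal axis) for the tested members of 10 lists and for all 360 tested miRNAs (rows, with the number tested), one point each, with called miRNAs in red (higher) or blue (lower) and a black bar at the median. The miR-17 clusters lie wholly below 0 (median -0.61), the let-7 and damage-induced lists wholly above it (0.30 and 0.41), and the 14q32 cluster on both sides.

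The other arm of a hairpin was tested for part of the called miRNAs. The 2 arms of miR-93 had log2 fold changes of -0.61 and -0.68, and miR-30c-2-3p had 0.56 beside 0.85 for miR-30c-5p. The arms of other hairpins lay further apart. miR-671-3p had -0.06 beside -0.95 for the 5p arm, miR-574-5p had 0.11 beside 0.64 for the 3p arm, and miR-10a-3p had 0.16 beside 0.57. miR-337-5p had 0.46 beside 1.27 for miR-337-3p. For the 2 loci of miR-125b-5p (0.49), miR-125b-1-3p had -0.08 at 2195 CPM in Ctrl and miR-125b-2-3p had 0.53 at 15.0 CPM (SE 0.64). None of these other arms was called, and the difference between arms was not tested.

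The SDS libraries of the same days gave a comparison with another damage, a detergent that harms the outer membrane of cells. It set 6 libraries against 6 and used no Ctrl library. The SDS replicates were less alike at D1 and D2 (r 0.952 and 0.963) than at D3 (0.986). The fibroblast markers summed to 57578 to 96816 CPM of the plain total after SDS, and the muscle markers to at most 7.96. The highest sums after SDS were 173 CPM for epithelial, 279 for hepatocyte, 126 for endothelial, 13.3 for erythroid and 3.61 for leukocyte markers, with the 2 neuronal markers at 0, and the part of other cell types in what follows was not tested. Of 360 tested miRNAs, 22 were higher after DXR (6.11%) and 6 were lower (1.67%). The higher ones included miR-34a-5p and miR-34c-5p, miR-30a-5p and miR-30c-5p with the 3p arms of miR-30a and miR-30e, both arms of miR-335 and of miR-490, miR-146b-5p, miR-10a-5p, miR-26a-5p and miR-26b-5p, 3 let-7 members, miR-486-5p, miR-125b-5p, miR-100-5p, miR-23b-3p and miR-224-5p. The lower ones were miR-4485-3p, miR-431-3p, miR-625-3p, miR-130b-3p, miR-31-5p and miR-424-3p. All 6 DXR libraries were above all 6 SDS libraries for 16 miRNAs (4.44%) and below for 2 (0.556%), the latter miR-431-3p and miR-424-3p. Sequences are given for those furthest apart in each direction without overlap, beside miR-34c-5p, which is named only.
hsa-miR-490-3p: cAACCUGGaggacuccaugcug
hsa-miR-146b-5p: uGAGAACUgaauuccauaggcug
hsa-miR-335-5p: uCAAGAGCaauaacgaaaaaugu
hsa-miR-431-3p: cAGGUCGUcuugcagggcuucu
hsa-miR-424-3p: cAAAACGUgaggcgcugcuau

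miR-34c-5p, damage-induced like miR-34a, had 103 and 67.1 CPM at DXR D1, 108 and 58.0 at D2 and 54.7 and 68.7 at D3. After SDS it had 33.0 and 12.6 CPM at SDS D1, 20.0 and 8.41 at D2 and 23.1 and 15.2 at D3. The lowest DXR library was above the highest SDS library (log2 difference 1.95, SE 0.34, edgeR adjusted p = 0.000114). miR-34a-5p had 337 and 314 CPM at SDS D1, 396 and 294 at D2 and 398 and 339.6 at D3, levels that lay on both sides of the Ctrl pair, and all DXR libraries were above them (log2 difference 0.81, SE 0.16, edgeR adjusted p = 0.000598). miR-30c-5p had 1725 and 949 CPM at SDS D1, 1573 and 807 at D2 and 1714 and 1561 at D3, again below every DXR library (log2 difference 1.05, SE 0.16, edgeR adjusted p = 4.25e-05). miR-30a-5p differed likewise, with 8052 to 15245 CPM after SDS against 16203 to 25457 after DXR (log2 difference 0.83, SE 0.14, edgeR adjusted p = 7.23e-05).

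miR-146b-5p, the paralog of miR-146a-5p, had 756 and 901 CPM in Ctrl, 1404 and 1246 at DXR D1, 1365 and 1024 at D2 and 1228 and 902 at D3. After SDS it had 688 and 522 CPM at SDS D1, 513 and 353 at D2 and 396 and 474 at D3. The Ctrl pair lay between the damage types, below every DXR and above every SDS library, and the difference between the damage types was called (log2 difference 1.29, SE 0.17, edgeR adjusted p = 1.16e-05) while that from Ctrl was not (log2 fold change 0.52, SE 0.25, edgeR adjusted p = 0.249). miR-335-5p, from an intron of the imprinted gene MEST, had 636 and 712 CPM in Ctrl, 1424 and 946 at DXR D1, 1342 and 1015 at D2 and 1232 and 1182 at D3. After SDS it had 641 and 415 CPM at SDS D1, 496 and 374 at D2 and 702 and 542 at D3, which overlapped Ctrl but no DXR library (log2 difference 1.18, SE 0.18, edgeR adjusted p = 4.25e-05). miR-490-3p, from an intron of CHRM2, had 103 and 129 CPM in Ctrl, 99.4 and 60.9 at DXR D1, 88.0 and 58.0 at D2 and 65.0 and 45.8 at D3. Its SDS levels were lower still, 18.3 and 25.1 CPM at SDS D1, 20.0 and 12.6 at D2 and 41.3 and 40.5 at D3 (log2 difference 1.49, SE 0.28, edgeR adjusted p = 0.000418), so that Ctrl was the highest of the 3 groups. Against Ctrl, the other arms miR-335-3p and miR-490-5p had log2 fold changes of -0.09 (SE 0.34) and 0.37 (SE 0.41). Those of miR-335-5p and miR-490-3p were 0.82 and -0.74, and none of these was called.

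miR-486-5p had 205 and 497 CPM at SDS D1, 173 and 210.2 at D2 and 229.5 and 294 at D3, with SDS D1 replicate 2 inside the DXR range (log2 difference 1.05, SE 0.22, edgeR adjusted p = 0.00139). miR-10a-5p had 23270.2 to 38095 CPM after SDS, below all DXR libraries (log2 difference 0.62, SE 0.10, edgeR adjusted p = 7.23e-05). miR-26a-5p, a repressor of EZH2, had 13785 to 19487 CPM after SDS and 24193 to 28265 after DXR (log2 difference 0.60, SE 0.11, edgeR adjusted p = 0.000164). In the other direction, miR-625-3p had 128 and 107 CPM at SDS D1, 125 and 71.5 at D2 and 159 and 147 at D3, near its Ctrl level on the third day where DXR was lowest (log2 difference -0.90, SE 0.21, edgeR adjusted p = 0.00372). miR-424-3p had 1289.8 to 1729 CPM after SDS and 832 to 1173 after DXR (log2 difference -0.52, SE 0.13, edgeR adjusted p = 0.00613). miR-431-3p had 65.9 to 163 and 30.8 to 62.9 CPM (log2 difference -0.94, SE 0.26, edgeR adjusted p = 0.0152).

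Several miRNAs called against Ctrl were not called between the damage types. The log2 difference between DXR and SDS was -0.31 for miR-155-5p (SE 0.15), 0.12 for miR-93-5p (SE 0.09), -0.02 for miR-374b-5p (SE 0.16), -0.05 for miR-337-3p (SE 0.17) and -0.11 for miR-664a-3p (SE 0.28). With total counts that of miR-155-5p was -0.51 and was called (edgeR adjusted p = 0.0192), and that of miR-93-5p turned to -0.077. A missed threshold does not show equal levels. By list, 2 of 6 damage-induced miRNAs and 2 of 5 of the miR-30-5p family were higher after DXR and 0 lower, where 6.11% and 1.67% of all tested were, with median log2 differences of 0.78 and 0.70 against -0.07 over all tested. The miR-17 clusters had 0 of 13 called, 5 above and 8 below 0 (1 and 12 with total counts, where 1 was called lower), and a median of -0.18. Of all 360 tested, 163 were above and 197 below 0 (104 and 256 with total counts). For the let-7 family 3 of 9 were called higher (let-7a-5p, let-7f-5p and let-7g-5p) and 0 lower, with a median of 0.28. With TMM 8 were above and 1 below 0. With total counts 5 were above and 4 below 0, and the median was 0.08. There 1 of the 9 was called higher and 1 lower, against 18 and 54 of all 360 tested, and let-7a-5p was not called.

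Leaving out SDS D1 replicate 1 or SDS D2 replicate 1 raised the number of calls between the damage types from 28 to 66 or 55, and the other 10 leave-outs gave 23 to 34. Size factors gave 22 higher and 12 lower and total counts 18 and 54, with the median of all tested miRNAs at -0.26 under total counts. With no filter, 30 were higher and 2 lower of 1393 miRNAs. There miR-431-3p, miR-424-3p and miR-625-3p were not called (edgeR adjusted p = 0.0689, 0.0936 and 0.0689). miR-431-3p was also not called at equal depth or in a fit of only the libraries compared. The calls of miR-34c-5p, miR-34a-5p, miR-30a-5p, miR-30c-5p, miR-146b-5p, miR-335-5p, miR-490-3p, miR-486-5p and miR-10a-5p held in each of the 12 leave-outs, whereas miR-431-3p was called in 7 of 12 and miR-125b-5p was not called with total counts.

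**Figure D5:**
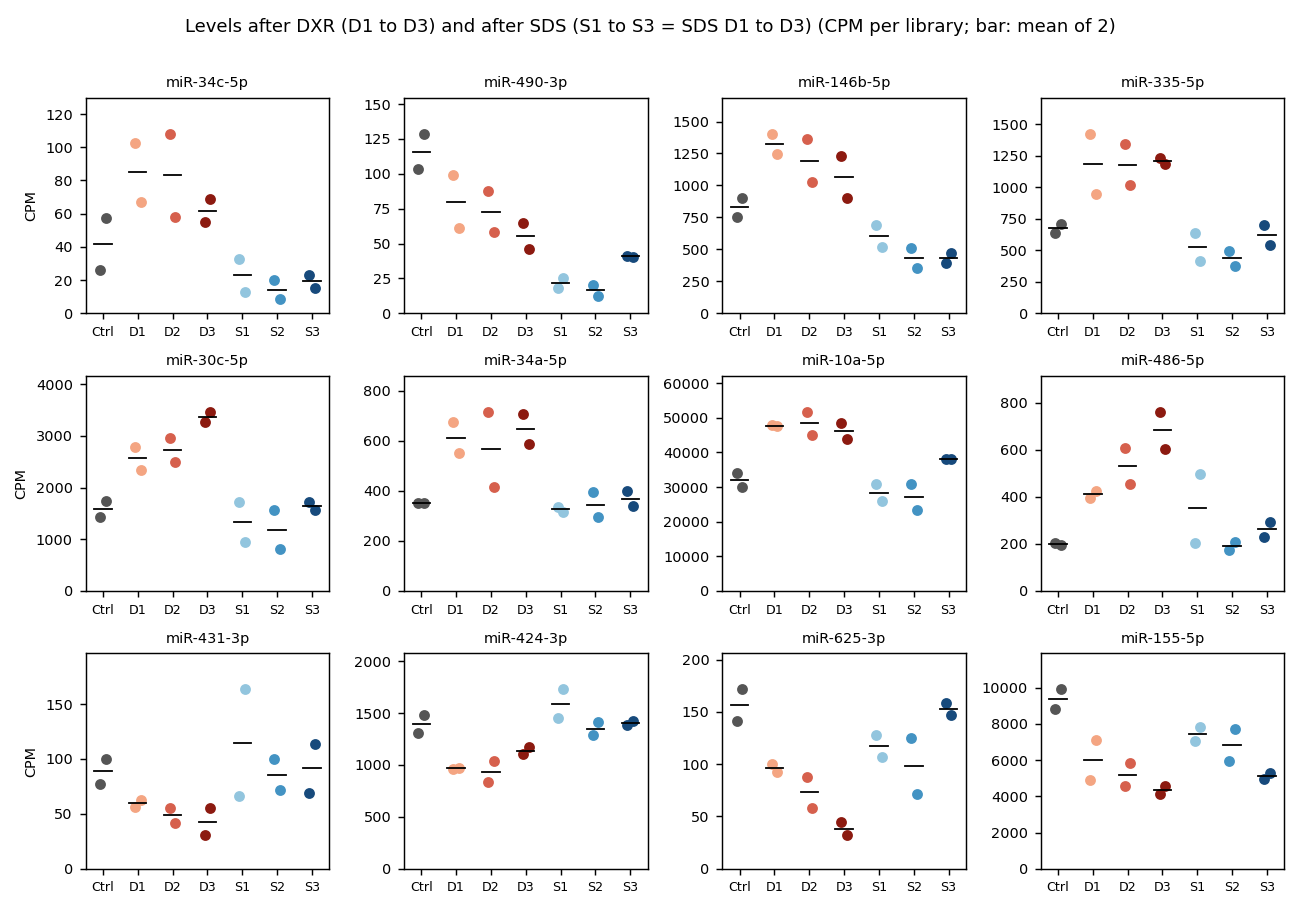
CPM (vertical axes, linear from 0) of 12 miRNAs in the 2 libraries of Ctrl, of DXR D1 to D3 (D1, D2, D3) and of SDS D1 to D3 (S1, S2, S3), with points for libraries and a bar for the mean of 2. DXR libraries lie above all SDS libraries for miR-34c-5p, miR-490-3p, miR-146b-5p, miR-335-5p, miR-30c-5p, miR-34a-5p and miR-10a-5p and below them for miR-431-3p and miR-424-3p, while miR-155-5p lies below Ctrl in both series.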

How the data were processed

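Total RNA of WI-38 cells was used by the authors for small RNA libraries, and reads were trimmed, mapped to GRCh38, aligned against miRBase and counted with the exceRpt pipeline. What the authors deposited is the expected count of each mature miRNA in each library, without normalization. Reads that match more than one miRNA are shared out, and 1003 of 54288 values are not whole. They were rounded to counts here. Libraries were assigned to groups by their labels, and 0 columns were left without a sample.

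Groups were compared in edgeR 4.0.16 (R 4.3.3, quasi-likelihood test, TMM, filterByExpr, all 36 libraries of 18 groups in the model, Benjamini-Hochberg adjustment over 360 miRNAs). Called means an adjusted p below 0.05. All p-values without another name are from edgeR. The biological coefficient of variation was 20.9%, with 18 residual and 12.0 prior degrees of freedom. D1 to D3 together is the mean of the 3 day coefficients minus Ctrl. CPM uses TMM-scaled totals, except that marker sums use plain totals. Named miRNAs are up to 12 highest and 12 lowest called against Ctrl without overlap, up to 4 and 4 against SDS, the 10 most abundant in Ctrl, and called, abundant or defining list members. Other list members, seed relatives and hairpin arms were named after their values were seen. The members, lists and comparisons were chosen with earlier results of these data known. Marker and list names were matched by mature name. miRNA sequences and coordinates are from RefSeq (329 of 360 tested matched), and host genes from GENCODE canonical transcripts. The procedure was run on simulated counts whose changes were larger than those called here, apart from miR-940. That run does not bear on smaller changes. Alternatives were DESeq2 1.42.0, the thresholds of the study, other scalings, filters and libraries, a replicate block and leave-outs, and, added after seeing the data, thinning to 223548 counts (150594 with SDS). Same-numbered replicates of Ctrl and the DXR days deviated together little (r -0.11 to 0.17), and the SDS days were not examined. This does not settle whether the numbers pair cultures, and the main model did not pair libraries. The replicates are labelled biological, and nothing else says how separate the cultures were. The mRNA, protein and transfection data were not analysed here.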

Additional observations from a re-analysis of the deposited data

Results flagged for a closer look

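The level on D1 to D3 differed between the damage types for 28 miRNAs by the test of the difference itself (edgeR adjusted p below 0.05). In log2 units of DXR minus SDS, the higher ones after DXR with a difference of at least 1 were miR-34c-5p (1.95), miR-335-3p (1.60), miR-490-3p (1.49), miR-146b-5p (1.29), miR-490-5p (1.21), miR-335-5p (1.18), miR-30e-3p (1.13), miR-30c-5p (1.05) and miR-486-5p (1.05). The smaller differences in the same direction were those of miR-30a-3p (0.92), miR-224-5p (0.90), miR-30a-5p (0.83), miR-34a-5p (0.81), miR-10a-5p (0.62), miR-26a-5p (0.60), let-7f-5p (0.60), miR-26b-5p (0.59), miR-23b-3p (0.52), let-7g-5p (0.50), let-7a-5p (0.40), miR-100-5p (0.38) and miR-125b-5p (0.30). Lower after DXR were miR-4485-3p (-1.09), miR-431-3p (-0.94), miR-625-3p (-0.90), miR-130b-3p (-0.83), miR-31-5p (-0.59) and miR-424-3p (-0.52). One miRNA differed among DXR D1, D2 and D3, miR-374b-5p, with an edgeR adjusted p of 0.0372. Groups of 2 libraries were too small for a check of single libraries that stand apart.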

How the results depend on the processing

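The cause of the changes below was not tested. The study's thresholds (unadjusted p and fold) called 25 miRNAs at D1, 25 at D2, 13 for D3 against D1 and 11 among the days. DESeq2 called 25 over D1 to D3, 6 at D2, 2 for D3 against D1, 43 against SDS and 2 among the days. DESeq2's size factors in edgeR called 3 at D2 and 0 among the days. Total counts called 3 at D2 and 72 against SDS. With no filter, 0 were called at D1 and 0 among the days, and a mean of at least 10 counts gave 3 at D2. A fit of only the libraries compared took its filter, TMM factors and dispersion from them. It gave 56 over D1 to D3, 4 at D1, 22 at D2, 65 at D3, 18 for D3 against D1 and 7 among the days. Equal depth gave 0 at D1, 0 at D2 and 0 among the days. Leaving out a replicate gave 0 to 17 calls over D1 to D3, 0 to 0 at D1 and D2, 5 to 7 at D3, 0 to 0 for D3 against D1, 0 to 1 among the days and 23 to 66 against SDS. The other counts over miRNAs stayed within 1.5 times, but the miRNAs behind them changed. Over D1 to D3 the study's thresholds called 22, and only 8 were among the 16 called by adjusted p. miR-30c-5p, miR-34a-5p, miR-574-3p, miR-10a-5p, miR-125b-5p, miR-671-5p, miR-155-5p and miR-93-5p were lost, each with an absolute log2 fold change below 1. These thresholds called 21 at D3, 10 of them among the 16 there. Against SDS they called 22, 10 of them among the 28. With the replicate number as a block, the counts were 16 over D1 to D3, 1 at D1, 1 at D2, 16 at D3, 0 for D3 against D1, 1 among the days and 30 against SDS. The sign turned for miR-100-5p (-0.039) and miR-146a-5p (-0.055) with total counts. Over the leave-outs, miR-146a-5p ran from -0.20 to 0.37 and miR-221-3p from -0.23 to 0.12 (without Ctrl replicate 2). Of the other values of single miRNAs, 299 kept their side of the threshold and direction, 43 lost it and 6 gained it under the alternatives, and 310 kept and 50 lost it when 1 library was left out. In every setting a library left out leaves a group of 1, which was taken to vary like the other groups. At equal depth miR-34a-5p was lost (adjusted p = 0.0505 in edgeR). miR-940 had 1 and 1 counts at D3 and miR-664a-3p 5 and 10 counts in Ctrl, though both stayed called at equal depth. Apart from miR-940, each call over D1 to D3 was lost when either Ctrl library was left out.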
